A study of Mus musculus with 23 samples.

Results

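Gad2 (gene 14417, oligo NM_008078) encodes GAD65, one of the enzymes that make the inhibitory transmitter GABA. It was 1 of 8726 genes with a single symbol on the arrays used here. It was found by its symbol in the array annotation. The gene was chosen by its measured ratio at 192 h, which an earlier look at these data had placed among the highest. Its values at 192 h are therefore given as a description, with no test.

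GABA is made from glutamate by decarboxylation, and neurons hold a pair of enzymes for this step. The product of Gad2 associates with synaptic vesicles and nerve terminals and supplies GABA for release, whereas the product of Gad1 is spread through the cell and makes most of the basal GABA. In the cortex both are markers of inhibitory interneurons, which are outnumbered by the excitatory projection neurons.

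Prefrontal cortex was taken from 8-week-old Balb/c females. They had received a subcutaneous injection of either 100000 4T-1 cells, a mammary carcinoma line that grows in this strain, in 100 µl of phosphate-buffered saline (PBS), or 100 µl of PBS alone, and were killed 18, 72 or 192 h later. Each in-house printed oligonucleotide array carried tumour RNA in one dye and PBS RNA of the same time in the other, and each replicate was measured on a pair of arrays with the dyes exchanged. Of 23 arrays, the 14 made from total RNA were used, which gave 3 replicates at 18 h, 2 at 72 h and 2 at 192 h. Nothing in the labels says whether a replicate was 1 mouse or a pool, so errors and p-values cover only the spread between these samples.

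All ratios below are log2 of tumour over PBS, after loess had removed their dependence on brightness within each scan, so 0 means equal levels in both RNAs. This direction is likely and not settled. No file header says which dye is which channel, so it was inferred from the dyes in the labels together with the sign of the value tables the authors deposited. Bulk cortex was measured, so a change in the number of Gad2 cells and a change of Gad2 RNA per cell cannot be told apart.

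Gad2 had 1 spot per array and each array was scanned 3 times, which gave 42 readings. Of these, 30 yielded a ratio, and in the other 12 at least 1 channel stood at 0. A ratio was available on 11 of 14 arrays and on both arrays of 5 of 7 replicates. Replicates 4 and 5 at 18 h lacked at least 1 side of the swap.

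At 192 h all 4 arrays gave a Gad2 ratio above 0. In replicate 3 the ratio was 0.11 with tumour RNA in Cy5 and 0.86 with tumour RNA in Cy3, which gave a replicate value of 0.49. In replicate 4 it was 0.49 and 0.92, with a replicate value of 0.70. Thus both replicates were above 0, and in both the array with tumour RNA in Cy3 gave the higher ratio. The mean was 0.59 ± 0.15 (SD, n = 2), a 1.51-fold higher level after tumour cells, and the standard error from the spread shared by all replicates was also 0.15. Among 2764 oligos with 2 replicate values at this time, 8 had a higher mean. Within single replicates 99.6% of oligos lay below Gad2 in replicate 3 and 98.8% in replicate 4. With the channels read the other way every sign turns, and the same 8 oligos would be lower than Gad2 and the same shares of oligos above it.

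At 72 h the Gad2 ratios were on the other side of 0 in 3 of 4 arrays. Replicate 3 gave -0.41 with tumour RNA in Cy5 and 0.24 in Cy3, so its value of -0.08 is the mean of arrays with opposite signs. Replicate 4 gave -0.54 and -0.38, with a value of -0.46. Only replicate 4 was thus below 0 on both arrays, and 0.943% of its oligos were lower than Gad2. The mean was -0.27 ± 0.27 (SD, n = 2), with a 95% interval of -0.60 to 0.06. It did not differ from 0 beyond the replicate error (limma p = 0.101, adjusted p = 0.998 over all oligos tested). No oligo at all passed an adjusted p of 0.05 at 72 h (0% of 4228), and 2.6% had an unadjusted p under 0.05 in the same limma fit.

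At 18 h a single replicate carried a Gad2 value. Replicate 6 gave -0.20 with tumour RNA in Cy5 and -0.21 in Cy3, a value of -0.21, and its arrays differed least of all swaps. In replicate 4 the array with tumour RNA in Cy5 gave 0.19, and its partner had no usable reading. Replicate 5 had no ratio on either array. One value and one unpaired array of opposite sign do not establish a direction for Gad2 at 18 h, and no test was made there.

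**Figure D1:**
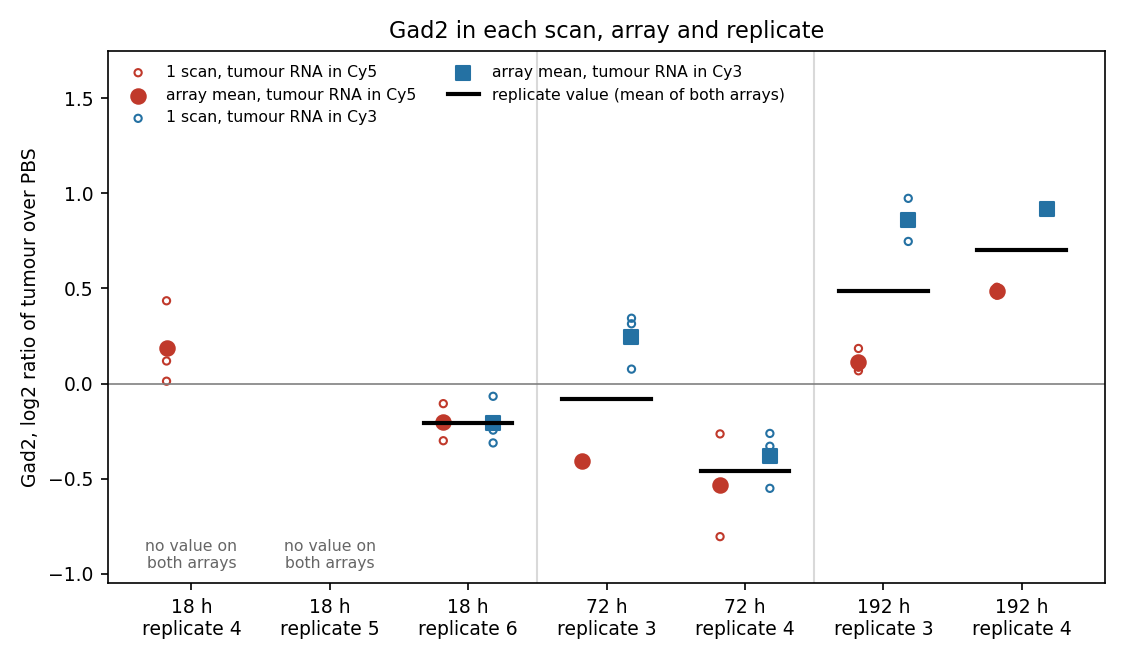
Log2 ratio of tumour over PBS for Gad2 in every scan (open points), array (filled points, coloured by the dye of the tumour RNA) and replicate (black bars), by time after the injection. Replicate values were 0.49 and 0.70 at 192 h against -0.21, -0.08 and -0.46 earlier, and 2 replicates at 18 h had no value on both arrays.

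In the order of time means, Gad2 was highest at 192 h (0.59), then at 18 h (-0.21) and 72 h (-0.27). The order would run in reverse, with 192 h lowest, if the channels were read the other way. The 18 h value lay between both 72 h replicates, so these neighbours in the order did not differ beyond their spread. The lower 192 h replicate exceeded the highest of the 3 earlier values by 0.57. Of 1746 oligos with a value in the same 5 replicates, 11% likewise had both 192 h replicates above the other 3, and 3.32% had both above 0 with the other 3 below 0. Single arrays of Gad2 did overlap between times. The lowest 192 h array, at 0.11, was below the highest earlier array, at 0.24, and 2 of 7 earlier arrays were above 0.

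Both arrays of a swap gave different Gad2 ratios in most replicates. The ratio with tumour RNA in Cy5 minus that with tumour RNA in Cy3, divided by 2 and here called the swap difference, was -0.37 and -0.21 in replicates 3 and 4 at 192 h, -0.33 and -0.08 in replicates 3 and 4 at 72 h, and 0.00 in replicate 6 at 18 h. It was below 0 in 4 of 5 replicates. At 192 h, 8.70% of oligos in replicate 3 and 12.2% in replicate 4 had a lower swap difference. The median of the 210-spot block that holds Gad2 had a swap difference of -0.39 in replicate 3 at 192 h, and relative to it that of Gad2 was 0.02. In the other replicates the swap difference relative to the block was -0.14 in replicate 4 at 192 h, -0.27 and -0.01 at 72 h, and -0.07 at 18 h. An effect of the dye on this oligo and one of slide position cannot be told apart in these differences. With single arrays fitted and a term for the dye, that term was -0.16 ± 0.09 for Gad2 (SE, n = 11 arrays).

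Over all oligos, after turning to tumour over PBS, both arrays of a swap correlated negatively across oligos in 6 of 7 replicates (median r = -0.27, range -0.60 to 0.16). Replicate 4 at 192 h was the exception above 0, and it also held the higher Gad2 value. Replicate values of the same time hardly correlated with each other (median r = 0.03 over 5 pairs of replicates), as did those of different times (median r = -0.02 over 16 pairs). These correlations are across oligos, which are not independent replicates.

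The signal of the Gad2 spot differed widely between replicates. Each reading is an intensity with local background already subtracted, given here relative to that background. In replicate 4 at 192 h it was 3.90 to 11.1 times the background over 12 readings (median 7.08). On all other arrays it was 0.477 to 5.69 times (median 1.53), and 13 of 58 readings were smaller than the background itself. The strongest Gad2 ratio thus came from the brightest spot. The 72 h values rested on the dimmest, at 0.547 to 2.63 times the background, with 8 of 22 readings smaller than it. Replicate 3 at 192 h stood between, at 1.03 to 2.93 times. Over all usable spots, the scan medians were 0.73 to 1.55 and 0.65 to 1.79 times in replicates 3 and 4 at 72 h. They were 1.94 to 3.14 and 1.07 to 3.23 times in replicates 3 and 4 at 192 h. The 72 h scans were thus dim over all spots. Of these replicates, only replicate 4 at 192 h had every Gad2 reading above its scan medians.

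The repeated scans show how far such signals were reproduced. The SD over the 3 scans was 0.02 on both arrays of replicate 4 at 192 h. It was 0.06 to 0.27 on the other arrays with at least 2 scans, and largest on the 72 h replicate 4 array with tumour RNA in Cy5, whose scans ran from -0.81 to -0.27. In replicate 3 at 72 h, the array with tumour RNA in Cy5 had a ratio in 1 of 3 scans. In replicate 3 at 192 h, the array with tumour RNA in Cy3 had a ratio in 2 of 3 scans, at 0.75 and 0.97. Scans repeat the reading of 1 slide, so their spread covers the reading and not the mice.

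**Figure D2:**
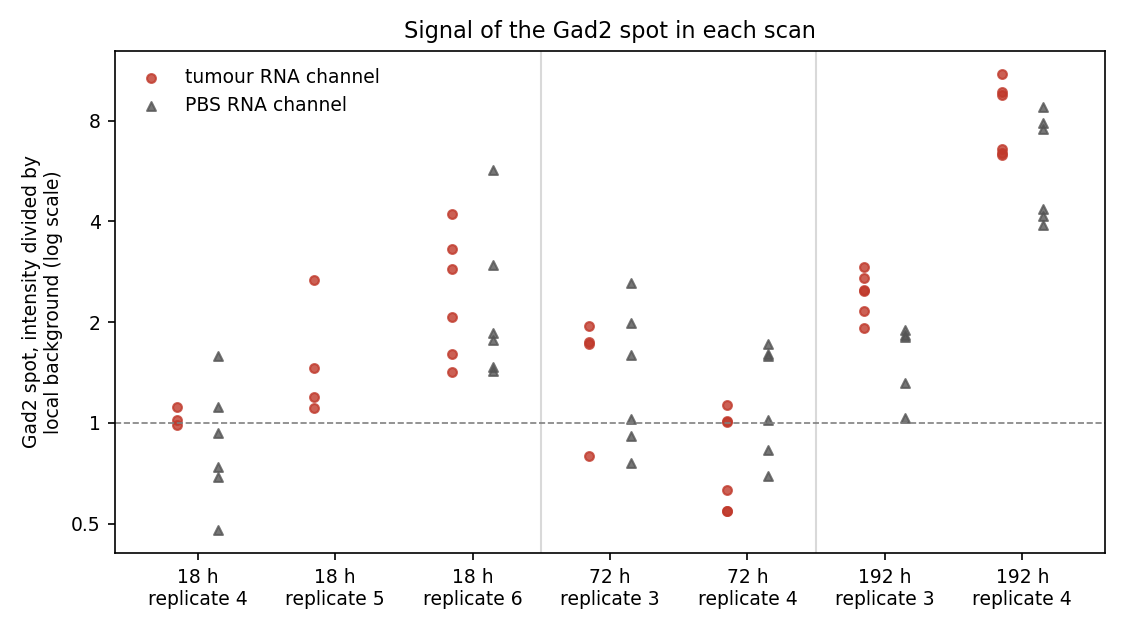
Intensity of the Gad2 spot divided by its local background in every scan with a signal, for the tumour and PBS channels, on a log scale, by replicate. The dashed line marks a signal equal to the background, and the readings of replicate 4 at 192 h, at 3.90 or more, all lie above those of the 72 h replicates.

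Where the spot lay on the slide also went with part of the value. The arrays came from 2 printings, with Gad2 in block row 4, block column 3 on 12 arrays and in block row 1, block column 3 on the 2 arrays of replicate 3 at 192 h. On those 2 arrays the block was displaced as far as it had values. Of its 209 other spots, 75 had a value with tumour RNA in Cy3 and 90 in Cy5. The median ratio of these spots was 0.61 in Cy3 and -0.17 in Cy5, an average of 0.22. Gad2 was above it by 0.25 and 0.28. In replicate 4 at 192 h the block medians were 0.12 and -0.03, an average of 0.05, and Gad2 was above them by 0.79 and 0.52.

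Relative to the block, Gad2 was thus higher by 0.26 in replicate 3 and by 0.65 in replicate 4 at 192 h. It was lower by 0.08 and 0.29 in replicates 3 and 4 at 72 h and by 0.20 in replicate 6 at 18 h. Every spot with a value within 2 rows and columns of it was lower than Gad2 on the 192 h arrays. The counts were 7 of 7 and 8 of 8 in replicate 3 and 23 of 23 and 24 of 24 in replicate 4. By replicate value, 99.6% of all oligos in replicate 3 and 98.8% in replicate 4 were lower than Gad2. As Gad2 was chosen for its high 192 h ratio, these neighbour counts largely follow from that choice. At 72 h, 3 of 20 and 15 of 23 such neighbours were lower in replicate 3 (tumour RNA in Cy5 and Cy3) and 4 of 20 and 3 of 23 in replicate 4. The unpaired 18 h array at 0.19 lay in a block with a median of 0.53, and Gad2 was lower than that block by 0.34. The sign of every replicate value was kept against the block, which at 192 h also largely follows from the choice of Gad2. Against the spots of the block with a value, replicate 3 at 192 h stood at 0.26 in place of 0.49.

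**Figure D3:**
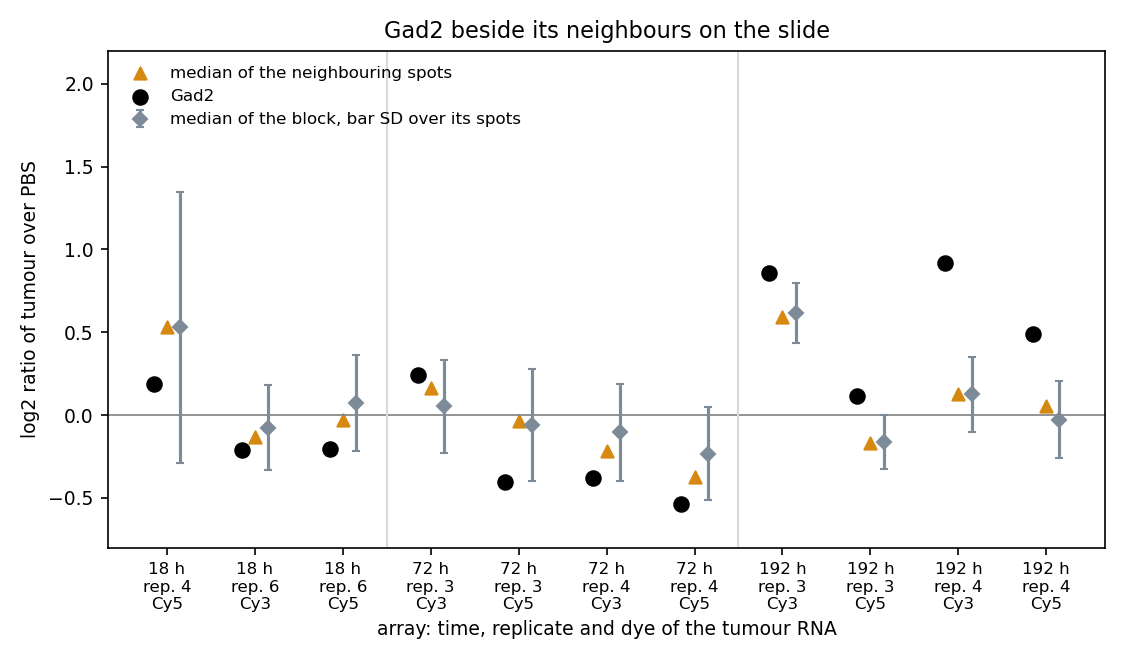
Log2 ratio of Gad2 on each array with a value (black), the median of the spots within 2 rows and columns (triangles) and the median of its block with the SD over the block's spots (diamonds). Gad2 lies above both on all 4 arrays at 192 h, by more in replicate 4 than in replicate 3. In replicate 3 the median over the block's spots with a value stands at 0.61 and -0.17.

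The authors' deposited tables of processed log ratios, whose base and normalization are not stated and whose array medians were near 0, held Gad2 on the same 11 arrays. At 192 h they gave 0.520 with tumour RNA in Cy5 and 0.757 in Cy3 for replicate 4. For replicate 3 the authors' deposited tables gave 0.174 and 0.0637. At 72 h the 4 values lay between -0.117 and 0.0220, and at 18 h the 3 values lay between -0.230 and 0.0192, again in the authors' deposited tables. In those tables, too, all 192 h arrays were above 0, but replicate 3 stood at 0.119 on average against 0.638 in replicate 4. The value on the unpaired 18 h array was below 0 there, at -0.230, and above 0 in the loess values.

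Gad1 and Abat were measured on both arrays in fewer replicates than Gad2. Gad1, which encodes the other decarboxylase, had a value on both arrays in 1 replicate per time, 0.08 in replicate 6 at 18 h, -0.02 in replicate 3 at 72 h and 0.12 in replicate 3 at 192 h. In that 192 h replicate the arrays disagreed in sign (0.39 with tumour RNA in Cy5, -0.16 in Cy3), and in replicate 4 the sole array with a value, with tumour RNA in Cy5, stood at 0.00. In replicate 3 at 192 h Gad1 was closer to 0 than Gad2, which was chosen for its 192 h ratio and stood at 0.49. With 1 replicate per time, Gad1 was not tested. Abat, which breaks GABA down, stood at 0.19 in replicate 4 at 18 h and at -0.31 in replicate 4 at 72 h.

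Slc32a1, the transporter that loads GABA into vesicles, was measured in all 7 replicates. At 192 h it was 0.23 in replicate 3 and 0.22 in replicate 4 (mean 0.22 ± 0.18, SE, limma p = 0.228, adjusted p = 1.000). At 72 h it was 0.10 and 0.14, and at 18 h 0.34, -0.40 and 0.50. The transporter's replicate values lay above 0 at 72 h where those of Gad2 lay below. In replicate 3 at 72 h, however, the arrays differed in sign for both genes. Slc32a1 stood at -0.22 with tumour RNA in Cy5 and 0.42 in Cy3, and Gad2 at -0.41 and 0.24. None of the 3 means of Slc32a1 differed from 0 beyond the error. No values are given here for the succinic semialdehyde dehydrogenase gene Aldh5a1 or for the GABA-B receptor genes.

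Among 51 genes of 8 lists on GABA (synthesis, breakdown, transport, supply of glutamate, vesicle partners of the GAD65 protein, receptor subunits and the inhibitory postsynapse), 25 had an oligo, Gad2 included. Without Gad2, 11 genes had enough replicates at 18 h, 16 at 72 h and 13 at 192 h. None of them passed an adjusted p of 0.05 in the limma fit at any time, as did none of all oligos (0% at each of the times). At an unadjusted p under 0.05 stood 1 of 11 at 18 h (6.22% of all oligos), 0 of 16 at 72 h (2.6% of all) and 1 of 13 at 192 h (3.36% of all). These shares rest on single genes.

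The gene at 192 h was Slc38a1, which encodes a neuronal glutamine transporter. It stood at 0.25 and 0.53 in replicates 3 and 4 (mean 0.39 ± 0.15, SE, limma p = 0.0177, adjusted p = 1.000), with array values of -0.08 and 0.58 in replicate 3 and 0.40 and 0.66 in replicate 4. Like Gad2, it had the lower ratio with tumour RNA in Cy5 in both. At 18 h the gene was Dnajc5, which encodes the vesicle chaperone cysteine string protein. Its value was -1.11 in replicate 4 and 0.04 in replicate 6 (mean -0.54 ± 0.22, SE, limma p = 0.0256, adjusted p = 0.770), so 1 replicate set the mean.

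The GABA genes as a body lay near all other oligos. Their median without Gad2 was 0.04 at 18 h, -0.04 at 72 h and 0.04 at 192 h, beside -0.01, -0.02 and 0.02 for all oligos tested. Above 0 were 7 of 11, 6 of 16 and 8 of 13 genes, against 47.6%, 45.6% and 55.4% of all oligos. At 192 h the 13 genes ranged from -0.10 to 0.39. All lay below the mean of Gad2, which was chosen for its high ratio at this time. The GABA-A receptor subunits, which form the ion channel that GABA opens, lay between -0.10 and 0.14 in 5 measured genes. Genes of the inhibitory postsynapse lay between -0.09 and 0.10 in 3 genes. Another 6 genes of the GABA lists had a value in a single 192 h replicate, 5 of them above 0 (range -0.22 to 0.38).

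Markers of cortical interneurons, the cells in which Gad2 is expressed, gave mixed values at 192 h. Of 18 on the array, 7 had values in both replicates, with 3 above 0 (median -0.09, range -0.14 to 0.10). Another 9 had a value in replicate 4 alone, with 6 above 0 (median 0.13, range -0.24 to 1.18). Highest among these were the potassium channel gene Kcnc1 at 1.18, the neuregulin receptor gene Erbb4 at 0.63 and the transcription factor Sox6 at 0.39. Below 0 were Calb2 at -0.24, Satb1 at -0.14 and Cort at -0.07. These genes were named after their values were seen, and Gad2 stood at 0.70 in replicate 4. The single-replicate markers have no replicate error and were not tested. Pvalb, the calcium-binding protein of fast-spiking interneurons, stood at -0.08 and -0.18 (mean -0.13 ± 0.15, SE, limma p = 0.393). Dlx1, a transcription factor of the interneuron lineage, stood at 0.03 and -0.31 (mean -0.14 ± 0.16, limma p = 0.390). Both adjusted p-values were 1.000. At 72 h, when Gad2 was at -0.27, 4 of 11 interneuron markers were above 0 (median -0.06).

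**Figure D4:**
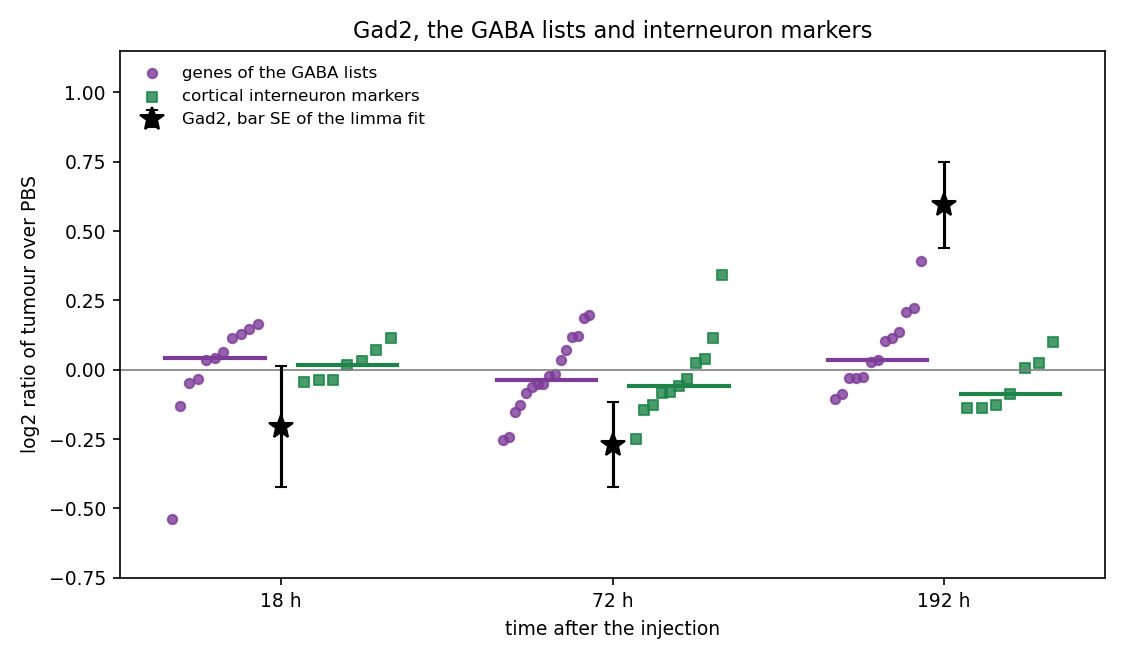
Log2 ratio of tumour over PBS at each time for Gad2 (stars, bars are the standard error of the limma fit, with 1 replicate at 18 h), for the other genes of the GABA lists with at least 2 replicates (circles) and for cortical interneuron markers with at least 2 replicates (squares), with the median of each set as a line. At 192 h these GABA genes range from -0.10 to 0.39 and the interneuron markers from -0.14 to 0.10. Gad2, chosen for its ratio at this time, lies above them at 0.59.

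Marker sets of other cells that cortical tissue, or tissue cut beyond it, can hold were looked at in the same way at 192 h. Their counts and medians cover genes with values in both replicates. Of 5 genes of striatal projection neurons on the array, a GABA-producing cell type that also expresses Gad2, 2 had such values. Pdyn and Isl1 of this list had a value in a single replicate, at -0.16 and 0.21. Pde10a, a phosphodiesterase of these neurons, stood at 0.11 and 0.35 (mean 0.23 ± 0.15, SE, limma p = 0.136) and the dopamine receptor gene Drd2 at -0.20 and 0.10. Excitatory cortical neuron markers had 3 of 6 above 0 (median 0.04), pan-neuronal markers 2 of 4 (median -0.02), astrocyte markers 3 of 4 (median 0.06) and oligodendrocyte markers 3 of 4 (median 0.16). Endothelial and pericyte markers had 1 of 2 above 0 (median 0.10).

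By the smallest p of each set at 192 h, the excitatory neuron kinase Camk2a had a mean of 0.32 ± 0.18 (SE, limma p = 0.0988) and the transcription factor Neurod6 one of 0.20 ± 0.14. Camk2a was -0.10 in one replicate and 0.74 in the other, so unlike Gad2 it changed sign between them. The vesicle protein gene Syn1 stood at 0.31 and the neuronal growth protein gene Stmn2 at -0.12, the astrocyte genes Slc1a3 and Sox9 at 0.11 and 0.09, the oligodendrocyte lineage factors Olig2 and Sox10 at 0.24 and 0.22, and the vascular genes Eng and Rgs5 at 0.22 and -0.01. All of these means were nearer to 0 than that of Gad2, which follows largely from its choice by a high 192 h ratio. None of these genes passed the adjusted test (adjusted p = 1.000 for each in limma).

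Of the microglia markers with values in both replicates at 192 h, 0 of 3 had a mean above 0 (median -0.22). P2ry12 changed sign between its replicates (-0.30 and 0.12). In a single replicate, Itgam stood at 0.41, C1qa at -0.38, C1qb at -0.16 and Gpr34 at -0.16. Aif1, a calcium-binding protein of microglia, stood at -0.27 and -0.30 (mean -0.28 ± 0.15, SE, limma p = 0.0762, adjusted p = 1.000). Olfml3 stood at -0.19 and -0.24. In no set did a marker pass the adjusted test at 192 h, and the part of these cells in the Gad2 values was not tested. A check of the tissue itself by its markers is weak on these arrays, because 97.7% of all oligos gave a value in at least 1 replicate, as did all 9 excitatory and all 18 interneuron markers that have an oligo.

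The oligos whose ratios ran most like those of Gad2 were sought over the 11 arrays with a Gad2 value, among 1513 oligos with a value on all of them. Pearson's r ranged from -0.83 to 0.91 with a median of 0.06. It is given as a description, since the 11 points come from 6 replicates, share slides and dyes, and the highest of many values is reported. Highest were Csnk1a1 (casein kinase 1 alpha, r = 0.911), Rit2 (a small GTPase of neurons, r = 0.910), Sdc4 (the cell-surface proteoglycan syndecan-4, r = 0.897), 1700037H04Rik (r = 0.895) and Kcnh7 (a voltage-gated potassium channel, r = 0.895). No gene of the GABA lists was among these 5, which says little about those genes. Gad1 could not be among them, since it had a value on 9 of the 11 arrays. Abat, too, lacked a value on some of these arrays.

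Their replicate values differed in size more than in order. At 192 h Kcnh7 stood at 0.43 in replicate 3 and 0.55 in replicate 4, the nearest to Gad2 (root mean square difference 0.117 over 5 replicates). Sdc4 stood at 0.24 and 0.77, whereas 1700037H04Rik stood at 0.13 and 0.17. In replicate 4 at 72 h, where Gad2 was at -0.46, the 5 genes lay between -0.36 and -0.21. In replicate 3 at 72 h they lay between -0.04 and 0.07, above Gad2 at -0.08.

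**Figure D5:**
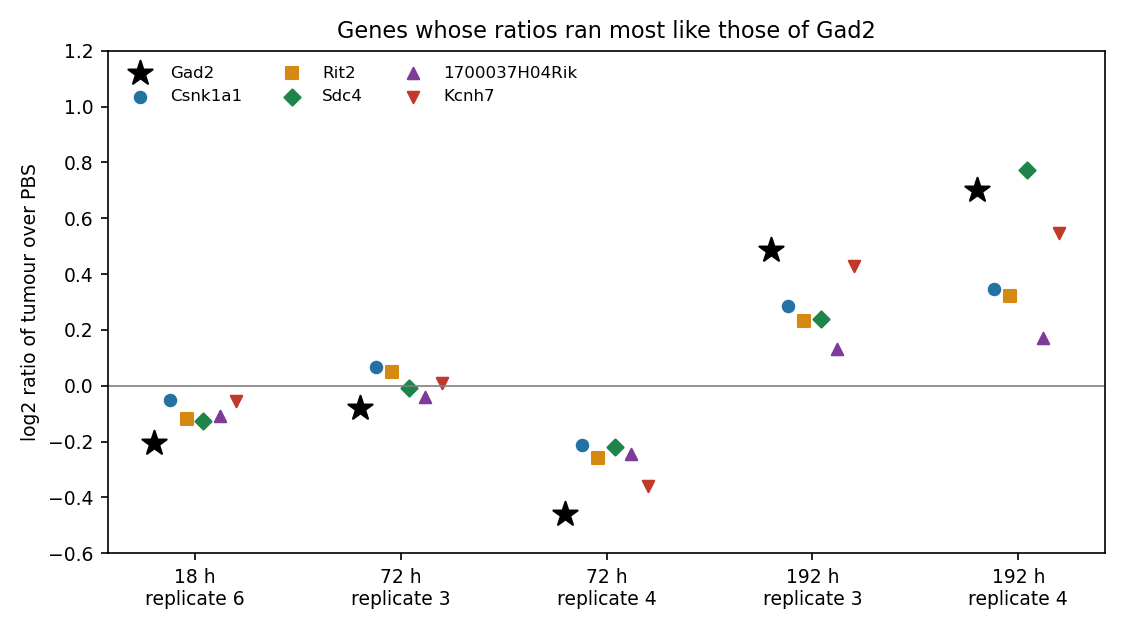
Replicate values (log2 ratio of tumour over PBS) of Gad2 (stars) and of the 5 genes with the highest correlation to it over 11 arrays. In both 192 h replicates all 5 are above 0, and in replicate 4 at 72 h all 5 are below 0, with Kcnh7 nearest to Gad2.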

How the data were processed

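Per the file headers, the deposited scanner files, 3 scans of 10080 spots for every array, list for each channel of a spot an integrated intensity from which local background had been subtracted, that background intensity, and the fraction of pixels below saturation. Processed log ratios by the authors were deposited as well, 1 for each spot of an array. Their base and normalization are not stated, and the image analysis program was not named in the labels or headers.

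A spot entered if both channels carried a good mark and an intensity above 0 and at least 0.9 of its pixels were unsaturated. The log2 ratio of channel B over A was corrected by loess (span 0.3) per scan and averaged over scans, arrays with tumour RNA in Cy3 were turned, and copies of an oligo were averaged. A replicate needed values on both arrays, whose mean was taken. Channel B was read as Cy5, because the authors' deposited log ratios correlated with B over A at 0.44 to 0.76 on arrays with tumour RNA in Cy5 and at -0.77 to -0.32 on the others. Spot names come from the platform annotation, and mean brightness by name correlated between both printings (Spearman 0.59 over 5815 oligos). A RefSeq table served for names alone and held 8909 of the 8997 oligos that carry 1 gene. The 9 poly A arrays were not used.

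The model was fitted in limma 3.58.1 under R 4.3.3, using lmFit and eBayes with a coefficient for each time and a spread shared over times. Tests were two-sided, needed at least 2 replicates and were adjusted by Benjamini-Hochberg over all oligos tested at a time (3442, 4228 and 2764 at 18, 72 and 192 h). The median signal of a scan was 0.461 to 7.53 times its background, and the number of arrays limits the precision. The scripts were tested on simulated data. Gad2 and the 16 gene lists were chosen with earlier results of these data known. Genes named beside Gad2 were its direct partners, GABA list genes with an unadjusted p under 0.05 and the 5 genes most alike in ratio. Named too were the 2 genes of smallest p at 192 h in each marker list. Outside these rules, Kcnc1, Erbb4, Sox6, Calb2, Satb1 and Cort were named after their values were seen. So were Pdyn, Isl1, P2ry12, Itgam, C1qa, C1qb and Gpr34.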

Additional observations from a re-analysis of the deposited data

Results flagged for a closer look

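The Gad2 ratio pointed in opposite directions at 2 of the times. Both replicates at 192 h were above 0 (0.49 and 0.70) and both at 72 h below 0 (-0.08 and -0.46), so the means differed by 0.86 on the log2 scale. The difference was not tested, because the gene was chosen for its 192 h values. Of 1746 oligos with a value in the same 5 replicates as Gad2, 11% had both 192 h replicates above the other 3. In 3.32% both 192 h replicates were above 0 and the other 3 below 0. In the authors' processed log ratios the 72 h replicates of Gad2 stood at -0.05 and -0.06. On single arrays the split was incomplete, since 1 of the 4 arrays at 72 h stood at 0.24. The higher time also had the brighter spot, at 1.03 to 11.1 times the local background against 0.547 to 2.63 times at 72 h. Scan medians over all usable spots ran from 1.07 to 3.23 times at 192 h and from 0.65 to 1.79 times at 72 h. The part of signal, printing and slide position in the difference was not tested.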

How the results depend on the processing

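Gad2 was above 0 at 192 h under all 22 alternatives of the processing used here (0.45 to 0.82). It was below 0 under all 21 at 72 h (-0.59 to -0.08, limma adjusted p 0.984 or higher with 2 replicates). At 18 h it was below 0 under all 21 (-0.27 to -0.01). Some alternatives cannot move a time mean, such as fitting each time alone or leaving out a replicate of another time. These counts are therefore no measure of robustness. They also leave out the authors' values and the unturned arrays, which follow here. At 192 h the value was 0.82 with normexp background correction and 0.38 in the authors' processed log ratios, and it turned to -0.29 where arrays with tumour RNA in Cy3 were not turned, which leaves the difference between the arrays of a swap in place of their mean. Loess within blocks gave 0.47 and the block median subtracted, chosen after seeing the data, gave 0.45. Leaving out a replicate gave 0.49 to 0.70 at 192 h, -0.46 to -0.08 at 72 h and -0.21 throughout at 18 h, where no value is left without replicate 6; a lone replicate is assumed to vary like the others. At 72 h no replicate has a value on both arrays once spots below the local background are removed.

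The count of oligos with an adjusted p under 0.05 was 0 at each time, with 214, 110 and 93 at an unadjusted p under 0.05 at 18, 72 and 192 h. It was 8 at 18 h and 1 at 192 h with median centring, 3 at 192 h when single arrays were fitted with a dye term, and 3, 6 and 9 at 18, 72 and 192 h where 1 replicate was enough, a setting chosen after seeing the data. Leaving out a replicate gave 0 at 18 h, 0 to 1 at 72 h and 0 to 19 at 192 h, the highest without replicate 3 at 192 h. With Gad2 left out of the count, no gene of the GABA lists was called under any of 5 alternatives chosen after seeing the data. Over all oligos these settings called at most 8 of 3442 at a time, with median centring at 18 h. No paired analysis was possible because no test compared times, although 72 h and 192 h share replicate numbers 3 and 4, and each array already sets tumour RNA against PBS RNA. Gad2 readings smaller than the local background were 5 of 25 at 18 h, 8 of 22 at 72 h and 0 of 23 at 192 h.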
